A study of Mus musculus with 9 samples.

Results

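The genes described here are 10 genes of the contractile apparatus of smooth muscle: Acta2, Actg2, Myh11, Myl9, Mylk, Tagln, Cnn1, Lmod1, Smtn and Des. They were taken by symbol from a table of 54838 genes, and all 10 were expressed well enough to be among the 18889 genes tested. Levels are RPKM, in which reads are divided by transcript length and by the size of the library. The RNA came from ovaries of adult mice collected 40 h after PMSG, a gonadotropin that makes follicles grow, and 9 libraries were sequenced, 3 for each of 3 genotypes. DKO_TG lacks both liver X receptors (LXR), nuclear receptors for oxysterols, and is labelled as also carrying a transgene named for AMH and LXRb. DKO is the same double knockout with no transgene named, and WT is the wild type. Every group had received PMSG. Amh is made by granulosa cells of growing follicles, and what drives the transgene is not given in the sources used here. Whether each library is a different animal is not labelled, and p-values therefore reflect only the variation among these libraries, some of which may be technical. Because whole ovaries were sequenced, fewer smooth muscle cells and less of these RNAs per cell cannot be told apart.

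Smooth muscle of the ovary lies in the theca externa around follicles, in the stroma and in the walls of blood vessels. Its thin filaments are built from alpha and gamma smooth muscle actin, and its thick filaments from smooth muscle myosin. Contraction starts when calcium and calmodulin switch on myosin light chain kinase, which phosphorylates the regulatory light chain. Many of these genes are switched on by serum response factor (SRF) together with its cofactor myocardin, which act on a DNA element called the CArG box.

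Promoter sequence from RefSeq (GRCm38.p6) was given for 7 of the 10 genes, and those of Actg2, Myh11 and Tagln were not among them. The CArG box was sought on both strands, on which it reads as the same pattern, in the 250 bases before each start. These starts are those of RefSeq, and for Acta2, Myl9 and Des they differ from the gene spans given below. Both Acta2 stretches shown lie inside the span given for that gene. An exact box lay in the window of 1 of the 7 genes, Myl9, and in 1.467% of all 32851 promoters. An exact box or one with 1 central base off lay in the windows of 2 of the 7, Acta2 and Myl9, and in 8.593% of all promoters. The stretches shown belong to the 3 genes that were lower than in WT in both knockout groups. CArG boxes are in capitals, and the Des window holds none, which says only that the pattern is not in those bases. The stretches lie at chr19:34255438-34255467 (minus strand, bases -94 to -65 from the start) and chr19:34255388-34255417 (minus strand, -44 to -15) for Acta2, at chr2:156775214-156775419 (plus strand, -250 to -45) for Myl9, and at chr1:75360042-75360291 (plus strand, -250 to -1) for Des.
Acta2, distal: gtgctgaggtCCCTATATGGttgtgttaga
Acta2, proximal: cgtctttgctCCTTGTTTGGgaagcgagtg
Myl9: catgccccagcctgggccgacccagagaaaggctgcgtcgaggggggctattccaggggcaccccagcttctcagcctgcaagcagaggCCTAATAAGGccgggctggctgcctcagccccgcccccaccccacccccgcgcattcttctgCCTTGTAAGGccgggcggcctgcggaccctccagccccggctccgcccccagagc
Des: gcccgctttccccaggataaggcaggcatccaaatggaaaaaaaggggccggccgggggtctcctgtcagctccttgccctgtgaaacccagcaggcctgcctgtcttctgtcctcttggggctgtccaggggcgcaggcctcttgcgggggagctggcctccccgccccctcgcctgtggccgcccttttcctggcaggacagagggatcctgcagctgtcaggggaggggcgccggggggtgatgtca

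The libraries held 40.1 to 47.6 M recovered reads in DKO_TG, 46.1 to 59.4 M in DKO and 48.6 to 57.7 M in WT. Nr1h3 (LXRa) averaged 0.670 ± 0.145 RPKM in DKO_TG, 0.807 ± 0.273 in DKO and 4.68 ± 0.701 in WT (SD, n = 3 each). Nr1h2 (LXRb) averaged 5.67 ± 0.458 RPKM in DKO_TG, 6.53 ± 1.09 in DKO and 18.8 ± 3.64 in WT. The WT libraries stood apart from both knockout groups. The nuclear-retained RNA Malat1 averaged 261 ± 16.4 RPKM in DKO_TG, 199 ± 19.1 in DKO and 7.38 ± 5.03 in WT. Of all tested genes, 51.4% were called in DKO_TG against WT and 56.7% in DKO against WT. A difference in RNA or library preparation between WT and the knockout groups cannot be told apart from genotype in these comparisons, and was not tested. Differences were tested with limma on log2(RPKM + 0.5) over all tested genes, and a gene was called at a Benjamini-Hochberg adjusted p under 0.05. A log2 fold change is the first group named minus the second on that scale, which understates the change of weakly expressed genes. The deposited scaling between libraries bears on every comparison with WT, and the values under other scalings are given after the genes.

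Against WT, the contractile genes that passed the test were all lower, in both knockout groups, on the deposited scaling. In DKO_TG, 4 of 10 genes were called lower (Acta2, Des, Myl9 and Lmod1) and none higher, where 22.3% of all tested genes were called lower and 29.1% higher. In DKO, 3 of 10 were called lower (Myl9, Acta2 and Des) and none higher, where 25.9% of all tested genes were called lower and 30.8% higher, so that count is near the background. The median log2 fold change of the 10 genes was -0.49 in DKO_TG and -0.42 in DKO, where the median of all tested genes was 0.03 in DKO_TG and 0.02 in DKO. Both comparisons use the same WT libraries and are therefore not independent of each other. Between DKO_TG and DKO, 0 of 10 genes were called by limma, 1 (Des) had an unadjusted p under 0.05, and 0 were called under any alternative, where the share called over all tested genes was 2.23% (0.498% higher, 1.73% lower).

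**Figure D1:**
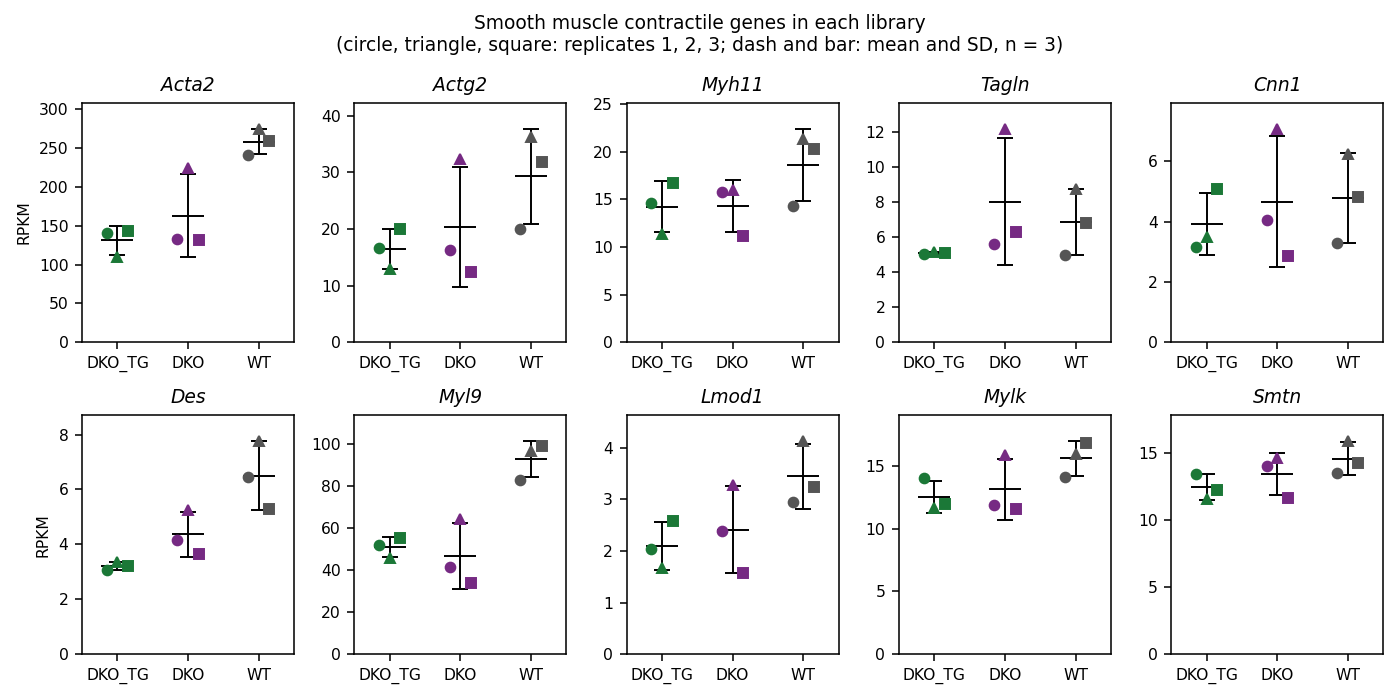
RPKM of the 10 contractile genes in each library (points) with the group mean, for DKO_TG, DKO and WT, 1 panel per gene. The WT points of Acta2, Myl9 and Des lie above all points of both knockout groups, while those of Tagln and Cnn1 overlap with them.

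Acta2 encodes alpha smooth muscle actin, the main actin of vascular smooth muscle, and had the highest RPKM of the 10 genes in every group (mm10 chr19:34241090-34255590, minus strand). It had 141, 109.7 and 143 RPKM in the DKO_TG libraries, 133, 224 and 131 RPKM in the DKO libraries, and 241, 274 and 259 RPKM in the WT libraries. The means were 131 ± 18.6 RPKM in DKO_TG, 163 ± 53.2 in DKO and 258 ± 16.6 in WT (SD, n = 3 each). All 6 knockout libraries lay below the lowest WT library, and DKO replicate 2 lay closest to it. On the log2 scale the difference was -0.98 (SE 0.21, adjusted p 0.00483 by limma) for DKO_TG against WT and -0.71 (SE 0.21, adjusted p 0.0198) for DKO against WT. For DKO_TG against DKO it was -0.28, with a 95% interval of -0.76 to 0.21 (adjusted p 0.575). Actins are close copies of each other in sequence, and the counting of reads shared between them is not given in the sources used here.

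Actg2, gamma smooth muscle actin of visceral muscle (chr6:83512905-83536265, minus strand), was more variable. It had 16.6, 12.9 and 19.9 RPKM in DKO_TG, 16.4, 32.5 and 12.3 RPKM in DKO, and 19.99, 36.2 and 31.9 RPKM in WT. The DKO_TG libraries all lay below WT, the highest almost reaching the lowest WT library, and the DKO libraries overlapped with WT because of replicate 2. Its log2 fold change was -0.79 (interval -1.59 to 0.0019, adjusted p 0.0873 by limma) for DKO_TG against WT and -0.59 (interval -1.38 to 0.20, adjusted p 0.175) for DKO against WT, neither of which passed the test. Without DKO replicate 2, DKO against WT passed, with an adjusted p of 0.0176. DKO_TG against WT passed without that library and in a fit of only the 6 libraries compared.

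Myh11, the heavy chain of smooth muscle myosin and a marker of mature smooth muscle cells (chr16:14194535-14291372, minus strand), had 14.6, 11.4 and 16.7 RPKM in DKO_TG, 15.8, 15.9 and 11.2 RPKM in DKO, and 14.3, 21.3 and 20.3 RPKM in WT. The lowest WT library lay within the range of both knockout groups. Its log2 fold change was -0.37 against WT for both DKO_TG (adjusted p 0.154 by limma) and DKO (adjusted p 0.150), and -0.01 (interval -0.47 to 0.46) for DKO_TG against DKO.

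Myl9, the regulatory light chain whose phosphorylation drives contraction (chr2:156775420-156781658, plus strand), had the largest difference of the 10 genes in DKO on the deposited scaling, which was not so with TPM (Tagln) or quantile scaling (Lmod1). It had 51.9, 45.6 and 55.2 RPKM in DKO_TG, 41.6, 64.2 and 33.9 RPKM in DKO, and 82.9, 96.4 and 99.0 RPKM in WT. The means were 50.9 ± 4.90 RPKM in DKO_TG, 46.6 ± 15.7 in DKO and 92.8 ± 8.61 in WT (SD, n = 3 each). Every knockout library was below every WT library. On the log2 scale it differed by -0.86 (SE 0.21, adjusted p 0.00858 by limma) for DKO_TG against WT and -1.03 (SE 0.21, adjusted p 0.00327) for DKO against WT. For DKO_TG against DKO it was 0.17 (interval -0.30 to 0.65, adjusted p 0.734).

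Mylk, the kinase that phosphorylates this light chain (chr16:34745210-35002420, plus strand), had 14.0, 11.6 and 12.0 RPKM in DKO_TG, 11.9, 15.9 and 11.6 RPKM in DKO, and 14.1, 15.9 and 16.8 RPKM in WT. The DKO_TG libraries lay just below WT and the DKO libraries overlapped with WT. Its log2 fold change was -0.31 (interval -0.62 to 0.0026, adjusted p 0.0889 by limma) for DKO_TG against WT and -0.25 (adjusted p 0.139) for DKO against WT. Without DKO replicate 2 the DKO difference passed, with an adjusted p of 0.0183. The DKO_TG difference from WT passed without that library and in a fit of only the 6 libraries compared.

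Des encodes desmin, the intermediate filament of muscle cells that is also found in pericytes (chr1:75360329-75368579, plus strand). It had 3.07, 3.36 and 3.20 RPKM in DKO_TG, 4.17, 5.27 and 3.66 RPKM in DKO, and 6.45, 7.78 and 5.28 RPKM in WT. The means were 3.21 ± 0.148 RPKM in DKO_TG, 4.37 ± 0.822 in DKO and 6.503 ± 1.25 in WT (SD, n = 3 each). The 3 groups did not overlap, although the highest DKO library nearly met the lowest WT library. The log2 fold change was -0.90 (SE 0.15, adjusted p 0.00149 by limma) for DKO_TG against WT and -0.52 (SE 0.15, adjusted p 0.0182) for DKO against WT. For DKO_TG against DKO it was -0.38 (interval -0.73 to -0.03, adjusted p 0.274), which did not pass.

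Lmod1, leiomodin, which starts new actin filaments in smooth muscle (chr1:135324807-135368065, plus strand), was the weakest of the 10 genes. It had 2.05, 1.66 and 2.58 RPKM in DKO_TG, 2.39, 3.27 and 1.58 RPKM in DKO, and 2.94, 4.13 and 3.25 RPKM in WT. The means were 2.09 ± 0.461 RPKM in DKO_TG, 2.41 ± 0.847 in DKO and 3.44 ± 0.619 in WT (SD, n = 3 each). The DKO_TG libraries lay below WT, and DKO overlapped with it. The log2 fold change was -0.61 (SE 0.22, adjusted p 0.0488 by limma) for DKO_TG against WT, close to the threshold, and -0.47 (adjusted p 0.104) for DKO against WT. The DKO_TG call was lost in most alternatives, including a filter-free fit and the exclusion of any WT library.

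Tagln encodes transgelin (SM22 alpha), an actin-binding protein and early marker of smooth muscle (chr9:45929619-45936058, minus strand). It had 5.04, 5.14 and 5.10 RPKM in DKO_TG, 5.61, 12.2 and 6.27 RPKM in DKO, and 4.996, 8.76 and 6.79 RPKM in WT. DKO replicate 2 had the highest level of the 9 libraries, and every DKO_TG library lay below every DKO library. The log2 fold change was -0.36 (adjusted p 0.298 by limma) for DKO_TG against WT, 0.17 (interval -0.46 to 0.79, adjusted p 0.620) for DKO against WT and -0.53 (interval -1.15 to 0.09, adjusted p 0.396) for DKO_TG against DKO. The antisense gene Gm48529 covers 62.4% of the exon bases of Tagln, and without knowing whether strand was used in counting, reads from both cannot be told apart. Gm48529 averaged 0.385 RPKM in DKO_TG, 0.406 in DKO and 0.194 in WT.

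Cnn1, calponin, an actin-binding inhibitor of myosin activity (chr9:22099216-22109630, plus strand), overlapped between all groups. It had 3.16, 3.51 and 5.08 RPKM in DKO_TG, 4.04, 7.09 and 2.86 RPKM in DKO, and 3.28, 6.25 and 4.83 RPKM in WT. Its log2 fold change was -0.24 (interval -0.96 to 0.47, adjusted p 0.544 by limma) for DKO_TG against WT and -0.08 (interval -0.80 to 0.64, adjusted p 0.849) for DKO against WT. Those intervals are wide enough to hold changes as large as that of Acta2 in DKO.

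Smtn, smoothelin, a marker of contractile smooth muscle cells (chr11:3517523-3540612, minus strand), varied least among the 10 genes by its standard error. It had 13.5, 11.6 and 12.3 RPKM in DKO_TG, 14.0, 14.6 and 11.7 RPKM in DKO, and 13.5, 15.9 and 14.3 RPKM in WT. The log2 fold change was -0.22 (interval -0.47 to 0.03, adjusted p 0.127 by limma) for DKO_TG against WT and -0.11 (interval -0.37 to 0.14, adjusted p 0.395) for DKO against WT. Its sign against WT turned under TPM and other totals. Genes on the opposite strand cover 16.3% of the exon bases of Smtn (Gm11946), 5.86% of Des (Gm15179) and 4.87% of Mylk (E130310I04Rik), and the same limit of strand applies there.

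**Figure D2:**
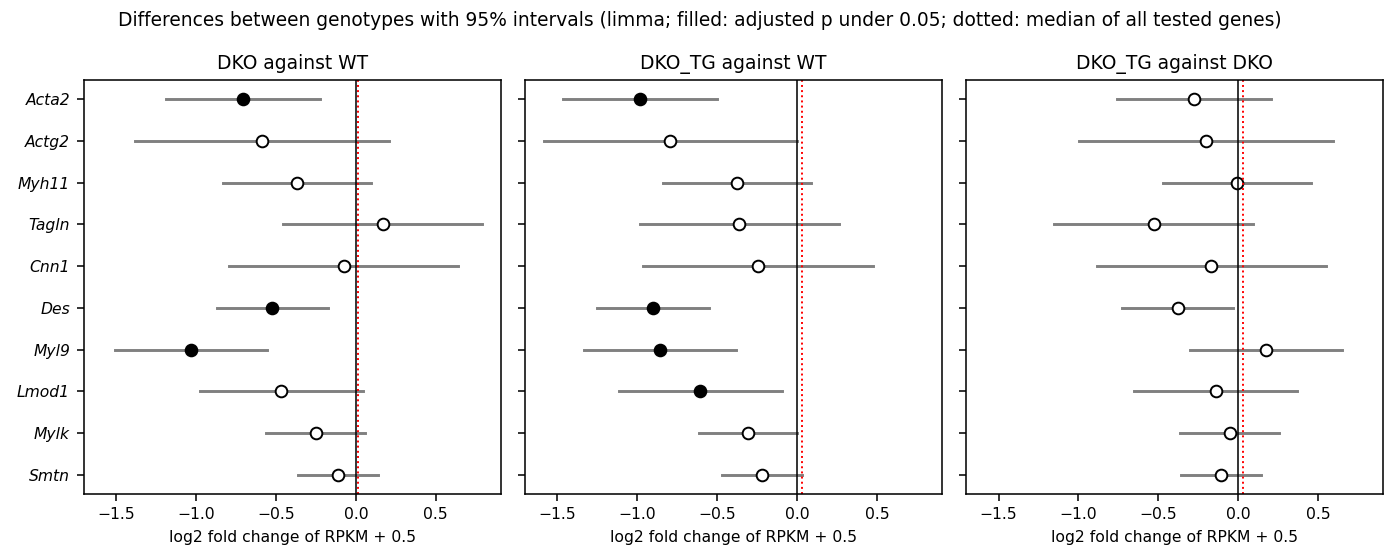
Log2 fold change with its 95% interval for each of the 10 genes in the 3 comparisons, with filled points for genes called at an adjusted p under 0.05. Myl9, Acta2 and Des are called in both comparisons with WT, Lmod1 in DKO_TG against WT, and no gene in DKO_TG against DKO.

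The counts over libraries that follow were made on the deposited scaling alone, and some other scalings shift WT against the knockout groups. Here 7 of 10 genes had all DKO_TG libraries below all WT libraries, where 30.2% of all tested genes did. In DKO this held for 3 of 10, where 28.6% of all tested genes did. Among the 10 genes, 0 lay wholly above WT, where 35.6% of all tested genes did in DKO_TG and 32.6% in DKO. Only Des and Tagln had all DKO_TG libraries below all DKO libraries, where 12.1% of all tested genes did.

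The scaling between libraries decided part of these calls. The library size behind the deposited RPKM was 0.793 to 0.920 of the recovered reads in WT and 1.03 to 1.11 in the knockout groups, which raises WT values relative to a plain total. Under a rescaling to TPM (each library set to the same summed RPKM), the median of all tested genes moved to 0.47 in DKO_TG against WT and 0.48 in DKO against WT, and that of the 10 genes to -0.02 in DKO_TG and 0.08 in DKO. No gene was then called in DKO_TG against WT. In DKO against WT 1 gene was called, Smtn, which was higher (log2 fold change 0.42, adjusted p 0.0483 by limma). Under TPM the calls over all tested genes were 51.6% higher and 5.26% lower in DKO_TG against WT, and 53.1% higher and 5.64% lower in DKO against WT. Scaled to the plain total of reads, Acta2, Des and Myl9 were called lower in DKO_TG and Myl9 alone in DKO, beside 11.8% of all tested genes in DKO_TG and 12.3% in DKO. With the sum over protein-coding genes, Acta2 and Des were called lower in DKO_TG and Myl9 in DKO, beside 9.6% of all tested genes in DKO_TG and 10.7% in DKO. Quantile scaling called Des and Lmod1 lower in both groups, where 23.8% of all tested genes were lower in DKO_TG and 25% in DKO, so that this count is near the background. On the deposited scaling, the median of the 10 genes differed from that of all tested genes by -0.52 in DKO_TG against WT and -0.43 in DKO against WT. With quantile scaling it differed by -0.35 in DKO_TG and -0.20 in DKO. The other scalings divide each library by 1 factor, which shifts all genes nearly alike, so they could hardly change this difference. All 10 genes in DKO_TG against WT lay below the median of all tested genes on the deposited and the quantile scaling. In DKO against WT 9 did on the deposited scaling and 7 with quantile scaling.

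**Figure D3:**
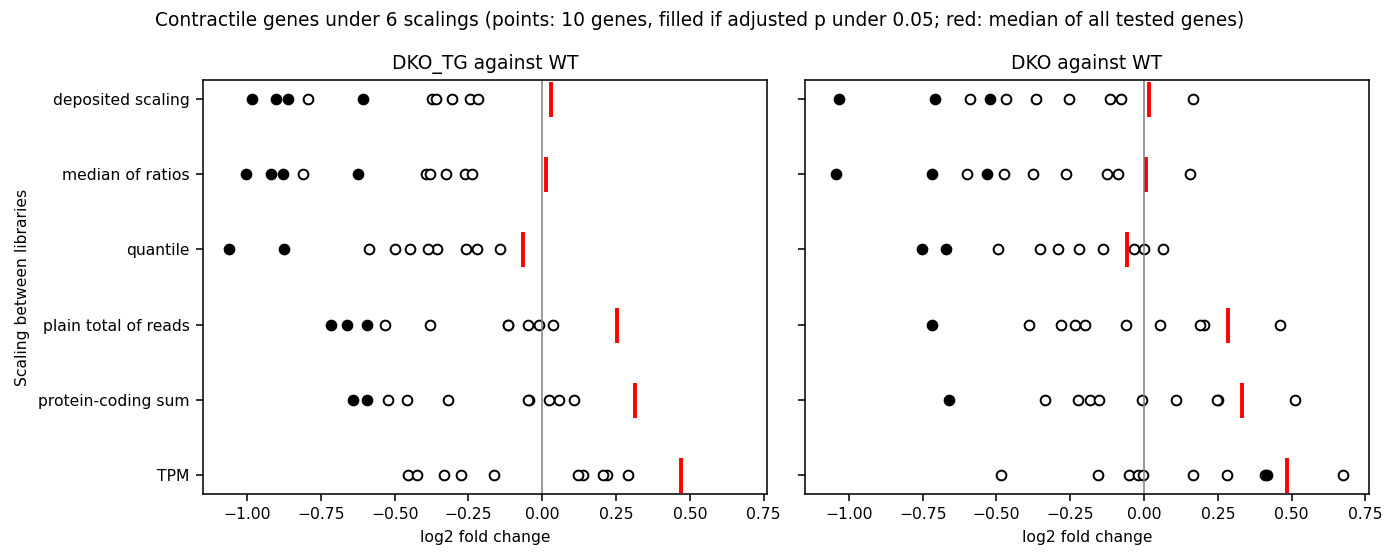
Log2 fold changes of the 10 genes (points) and the median of all tested genes under 6 scalings of the libraries, for DKO_TG against WT and DKO against WT. The points move together with the median of all tested genes, and most lie below it in both comparisons with WT.

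Leaving out a library also moved the calls. In DKO against WT, 6 of 10 genes were called lower without DKO replicate 2 (Actg2, Lmod1 and Mylk being added), 2 without DKO replicate 1, and 1 without WT replicate 2 or without DKO replicate 3, where Myl9 was the gene still called. Of all tested genes, 27.6% were called lower without DKO replicate 2, 22.1% without DKO replicate 1, 23.4% without WT replicate 2 and 22.5% without DKO replicate 3. The count for DKO_TG against WT was between 3 and 6, and was 6 without DKO replicate 2, where 23.5% of all tested genes were called lower. The main fit shares the spread of all 9 libraries, DKO among them. A fit of only the 6 libraries compared also called 6 of 10 lower in DKO_TG against WT, Actg2 and Mylk being added. There 25.5% of all tested genes were called lower.

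The 10 genes varied together from library to library within a genotype. DKO replicate 2 had the highest level of its group for 10 of 10 genes, and DKO replicate 3 the lowest for 9 of 10. WT replicate 1 was lowest of WT for 9 of 10, and DKO_TG replicate 3 was highest of its group for 6 of 10. The summed level of the 10 genes was 216 to 275 RPKM in DKO_TG, 226 to 395 RPKM in DKO and 403 to 487 RPKM in WT. Over the 9 libraries the correlation between pairs of genes had a median Pearson r of 0.788, from 0.338 for Tagln and Myl9 to 0.955 for Actg2 and Lmod1. After removing the genotype means the median was 0.781. These correlations are descriptions with no p, since the genes of a library share its depth and scaling. DKO replicate 2 also had the highest macrophage markers (summed 354 RPKM, against 176 and 258 in the other DKO libraries) and erythrocyte markers (2409 RPKM, against 562 and 1672), and the lowest granulosa cell markers (1039 RPKM, against 1474 and 2059). WT replicate 1 had the highest sum of theca and interstitial cell markers of its group (7350 RPKM, against 5030 and 5171). That sum was carried by the steroid synthesis genes Hsd3b1 (5517 RPKM), Cyp17a1 (956 RPKM) and Star (803 RPKM), each highest of WT there. Lhcgr, Gli1 and Ptch1 of the same list were instead lowest of WT in that library. WT replicate 1 also had the highest summed adipocyte markers of its group (31.9 RPKM, against 12.1 and 12.9). The part of these cells in the result was not tested.

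**Figure D4:**
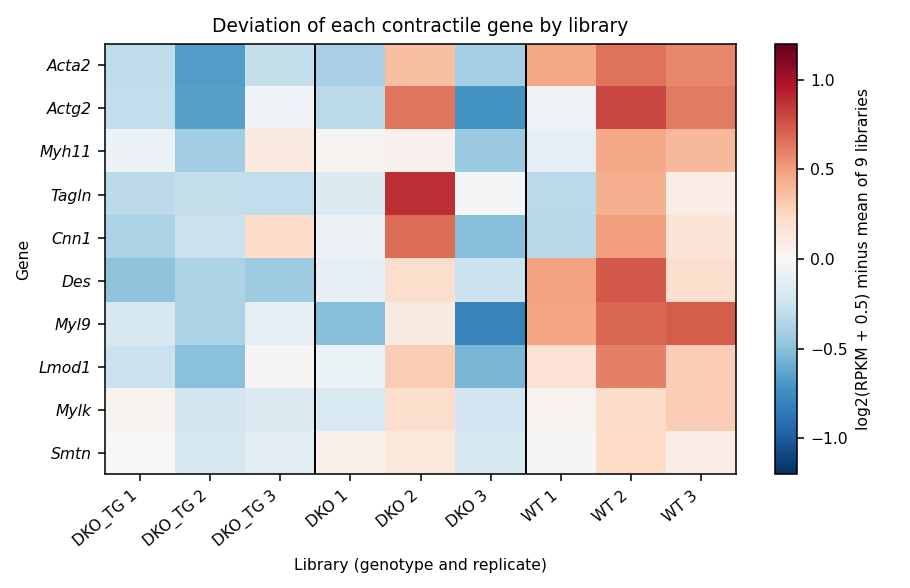
Level of each of the 10 genes in each library as log2(RPKM + 0.5) minus the mean of the gene over the 9 libraries. DKO replicate 2 is the highest DKO library for all 10 genes, and DKO replicate 3 holds the lowest value of the 9 libraries for 6 of them.

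Ratios within a library are free of the scaling between libraries. Myl9 relative to Myh11 was 3.56, 4.01 and 3.31 in DKO_TG, 2.64, 4.03 and 3.04 in DKO, and 5.81, 4.52 and 4.88 in WT, so both knockout groups lay below WT without overlap. Acta2 relative to Myh11 was 9.66, 9.64 and 8.56 in DKO_TG, 8.45, 14.1 and 11.7 in DKO, and 16.9, 12.9 and 12.8 in WT, with DKO overlapping WT. Two-sided exact permutation tests gave p 0.1 for both ratios in DKO_TG against WT, the smallest p that 3 against 3 libraries allow, and in DKO against WT p 0.1 for Myl9 and p 0.4 for Acta2. With 36 such tests over 12 ratios, the smallest adjusted p was 0.72. A ratio bears on unequal change of both genes and does not say which of them changed. Actb, the cytoplasmic beta actin, was looked at after its values were seen. It averaged 202 ± 1.99 RPKM in DKO_TG, 219 ± 57.1 in DKO and 414 ± 22.5 in WT (SD, n = 3 each), and was called lower in DKO_TG against WT (log2 fold change -1.03, adjusted p 0.00131 by limma) and in DKO against WT (-0.95, adjusted p 0.00186), the second of which was lost with quantile scaling (adjusted p 0.107). Acta2 relative to Actb was 0.705, 0.543 and 0.700 in DKO_TG, 0.764, 0.793 and 0.661 in DKO, and 0.553, 0.659 and 0.664 in WT, with overlapping groups (exact permutation p 0.6 for DKO_TG against WT and 0.2 for DKO against WT). Myl9 relative to Actb was 0.260, 0.226 and 0.271 in DKO_TG, 0.238, 0.227 and 0.171 in DKO, and 0.190, 0.232 and 0.253 in WT. These groups overlapped too (exact permutation p 0.4 for DKO_TG against WT and 0.6 for DKO against WT).

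Of 26 partners of actin and myosin in the cytoskeleton, 24 were tested. In DKO_TG against WT 10 were called lower and 1 higher, and in DKO against WT 9 were called lower and 1 higher, with list medians of -0.36 in DKO_TG and -0.33 in DKO. For this and the following lists, the shares over all tested genes on the deposited scaling were 29.1% higher and 22.3% lower in DKO_TG, and 30.8% higher and 25.9% lower in DKO. The genes with the smallest p included Actn4, an actin crosslinker (log2 fold change -1.01 in DKO_TG and -0.999 in DKO), and Tln1, talin, which ties actin to integrins (-0.83 in DKO_TG and -0.72 in DKO). Vcl, vinculin, a partner of talin at adhesions, had -0.59 in DKO, and Csrp1, a LIM-domain protein of smooth muscle, had -0.99 in DKO_TG. The gene called higher in DKO was Nexn (0.52), whose product binds actin. Actn4 and Csrp1 kept these calls under every alternative, while those of Vcl were lost with TPM, the protein-coding sum and the plain total, and that of Tln1 in DKO with TPM. The Nexn call was lost with quantile scaling. With TPM scaling these counts became 4 higher and 4 lower in DKO_TG, and 9 higher and 2 lower in DKO, where 51.6% of all tested genes were higher and 5.26% lower in DKO_TG, and 53.1% higher and 5.64% lower in DKO. In DKO_TG against DKO none was called by limma, and 2 had an unadjusted p under 0.05.

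Of 17 genes around SRF and myocardin, 15 were tested. Against WT, 4 were called higher and 3 lower in DKO_TG, and 5 higher and 2 lower in DKO, beside 29.1% higher and 22.3% lower of all tested genes in DKO_TG and 30.8% higher and 25.9% lower in DKO. Srf itself averaged 8.28 RPKM in DKO_TG, 10.04 in DKO and 9.03 in WT. Myocd averaged 1.58 RPKM in DKO_TG, 1.53 in DKO and 0.851 in WT, and neither gene was called in any comparison on the deposited scaling. Mkl2, a myocardin-related cofactor, was called higher in DKO_TG (0.57) and in DKO (0.55), as was Elk4, an ETS partner of SRF (0.85 in DKO_TG and 0.79 in DKO). Tgfb1, a growth factor that promotes contractile gene expression, was called lower (-1.25 in DKO_TG and -1.07 in DKO). The calls of Mkl2, Elk4 and Tgfb1 held under every alternative. With TPM scaling 10 were higher and 1 lower in DKO_TG, and 11 higher and 1 lower in DKO, under which 51.6% of all tested genes were higher in DKO_TG and 53.1% in DKO. None was called in DKO_TG against DKO by limma, with 3 at an unadjusted p under 0.05.

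Among 18 tested genes of myosin phosphorylation and RhoA signalling (19 listed), 5 were called higher and 6 lower in DKO_TG, and 6 higher and 6 lower in DKO, both against WT. These counts are near the shares over all tested genes (29.1% higher and 22.3% lower in DKO_TG, 30.8% higher and 25.9% lower in DKO). Ppp1r12a, the subunit that targets myosin phosphatase to myosin, was higher (1.08 in DKO_TG and 1.02 in DKO), as was the kinase Camk2g (1.11 in DKO_TG and 0.85 in DKO). Both calls held under every alternative. Rhoa, a small GTPase that promotes contraction, was lower on the deposited scaling (-0.44 in DKO_TG and -0.56 in DKO), a call lost with TPM, the protein-coding sum, the plain total and quantile scaling, and with TPM its value in DKO_TG turned to 0.0790. With TPM scaling 8 were called higher in DKO_TG and 10 in DKO, and 0 lower in both, again near the shares over all tested genes (51.6% higher in DKO_TG and 53.1% in DKO). None was called in DKO_TG against DKO by limma, with 3 at an unadjusted p under 0.05, and the smallest p was that of the kinase Pak1 (-0.59, adjusted p 0.0567).

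Of 22 receptors and channels of contractile cells, 16 were tested. Against WT, 3 were higher and 1 lower in DKO_TG, and 3 higher and 4 lower in DKO. Cacna1c, the L-type calcium channel of smooth muscle, averaged 1.31 RPKM in DKO_TG, 1.63 in DKO and 0.449 in WT, with log2 fold changes against WT of 0.93 in DKO_TG and 1.16 in DKO. Ednra, an endothelin receptor of smooth muscle, was lower in DKO_TG (-0.52), a call lost with TPM, the protein-coding sum and the plain total. Ednrb, the other endothelin receptor, was lower in DKO (-0.86, adjusted p 0.0154 by limma), which was lost with the same scalings, and without WT replicate 2 its adjusted p was 0.0532. With TPM scaling 8 were higher in DKO_TG and 7 in DKO, near the shares over all tested genes, and 0 lower in either. None was called in DKO_TG against DKO by limma, with 5 at an unadjusted p under 0.05. The count of receptors and channels called lower in DKO against WT was between 0 (without WT replicate 2) and 6 (without DKO replicate 1) when libraries were left out.

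**Figure D5:**
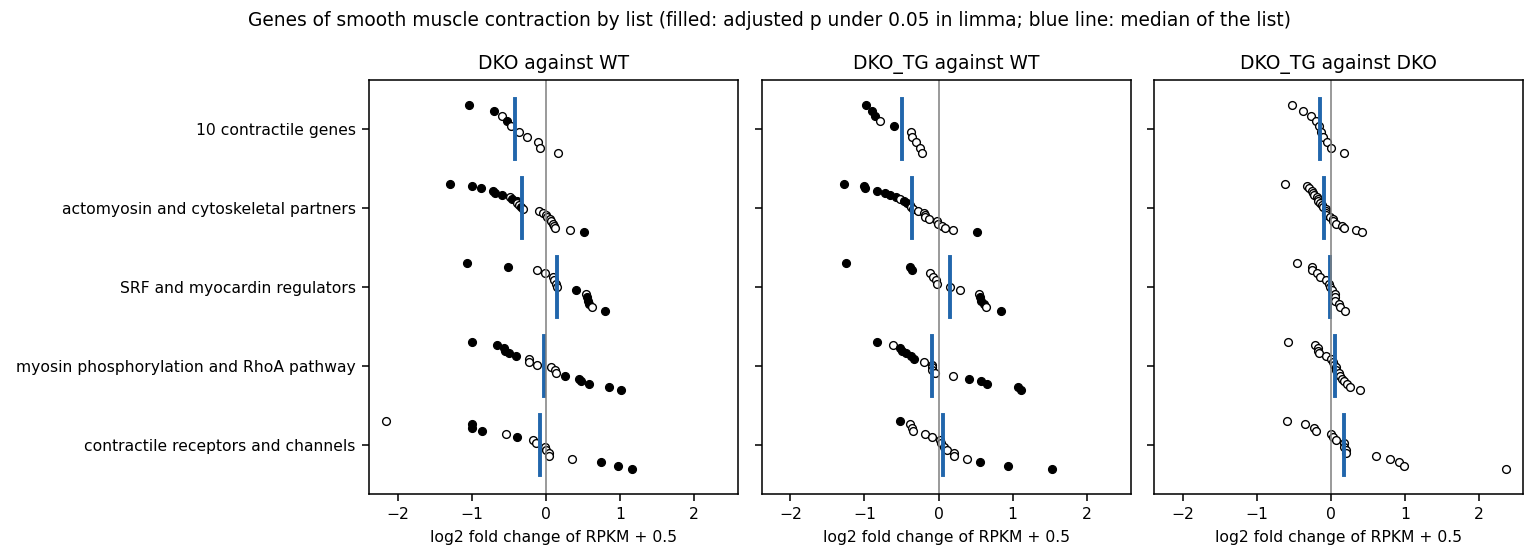
Log2 fold changes of the tested genes of each list in the 3 comparisons, with the list's median. The contractile genes all lie below 0 in DKO_TG against WT, and all but Tagln do in DKO against WT. The actin and myosin partners lie mostly below 0 against WT, with medians of -0.36 in DKO_TG and -0.33 in DKO. The other lists hold genes on both sides.

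Markers of other cells of the ovary were counted in the same fits, where 22.3% of all tested genes were lower and 29.1% higher in DKO_TG against WT, and 25.9% lower and 30.8% higher in DKO against WT. Pericyte and mural cell markers summed to 95.4 to 101.1 RPKM in DKO_TG, 75.9 to 114 in DKO and 99.2 to 113 in WT. Of the 10, Pdgfrb and Cspg4 were called lower in both groups against WT, and Higd1b was called higher in DKO (log2 fold change 0.41, adjusted p 0.0197 by limma), a call lost with quantile scaling, the voom fit and the fit of 6 libraries, and without WT replicate 2 or WT replicate 3. With TPM scaling 6 of these markers were higher in DKO_TG and 5 in DKO, and 0 lower, which is near the shares over all tested genes. Those shares under TPM were 51.6% higher and 5.26% lower in DKO_TG, and 53.1% higher and 5.64% lower in DKO. They also apply to the TPM counts against WT of the marker lists that follow.

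Endothelial markers summed to 64.0 to 74.7 RPKM in DKO_TG, 51.8 to 77.5 in DKO and 89.8 to 97.2 in WT, below WT without overlap. Against WT, 4 of 7 were called lower in DKO_TG, and 5 of 7 lower and 1 higher in DKO, while with TPM 0 were called in DKO_TG and 1 higher and 1 lower in DKO. Fibroblast markers summed to 279 to 357 RPKM in DKO_TG, 383 to 476 in DKO and 452 to 540 in WT. Of these, 4 of 7 were called lower in DKO_TG and 2 of 7 in DKO against WT, while with TPM 1 was lower in DKO_TG and 3 were higher in DKO.

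Macrophage markers summed to 85.4 to 89.6 RPKM in DKO_TG, 176 to 354 in DKO and 120 to 156 in WT. Against WT, 3 of 7 were called lower in DKO_TG and 6 of 7 higher in DKO, and with TPM 1 was higher in DKO_TG and 7 in DKO. In DKO_TG against DKO, where none of the contractile genes was called, 6 of 7 macrophage markers were called lower (5 with TPM), as were the endothelial gene Vwf (log2 fold change -0.98, adjusted p 0.0176 by limma) and the fibroblast gene Dcn (-0.78, adjusted p 0.0171). Oocyte markers were called higher for 6 of 7 genes in DKO_TG and 5 of 7 in DKO against WT, with medians of 1.29 in DKO_TG and 1.14 in DKO, and with TPM for 6 of 7 in both. Of 12 skeletal and cardiac muscle markers, 10 were too low to be tested, among them Ckm, Ttn, Mb and Myh7, and Acta1 made up most of the rest (4.50 RPKM in DKO_TG, 4.89 in DKO and 11.2 in WT). Oviduct and uterus markers, from tissue that can be cut with the ovary, summed to 9.58 to 12.3 RPKM in DKO_TG, 10.3 to 19.5 in DKO and 7.10 to 8.94 in WT. Most of that sum was Tppp3 (8.36 RPKM in DKO_TG, 11.6 in DKO and 5.96 in WT). Foxj1, Pax8, Hoxa10 and Hoxa11 were too low to be tested. Of the 3 tested, 1 was called higher in DKO_TG against WT. In DKO against WT 2 were called higher and 1 lower, Rsph1 (0.882 RPKM in DKO and 1.58 in WT). The part of these cells in the lower contractile genes was not tested.

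Among the 5 genes whose pattern over the 9 libraries was most like the mean of the 10 genes, out of 7351 others with a mean of at least 5 RPKM, were Gyg (Pearson r 0.979), Glb1 (0.973), Abcb1a (0.932) and Serpinh1 (0.924). After centring within each genotype the 5 were Gyg (0.985), Ywhag (0.970), Pla1a (0.964), Fli1 (0.952) and Cdr2l (0.952). Serpinh1, the collagen chaperone, averaged 189.7 RPKM in DKO_TG, 185 in DKO and 232 in WT.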

How the data were processed

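Total RNA of ovaries was sequenced in 9 libraries, 3 for each of 3 genotypes, grouped by the sample labels. The authors deposited 1 table of RPKM values. Per the submitters' processing notes, the tools were HISAT2 2.1.0, HTSeq 0.5.4p5, cutadapt and DESeq2 1.2.8, with the mm10 build. How RPKM was made, from which annotation and whether by strand is not given in the sources used here. The columns of the transgene libraries spell the transgene differently from the labels and were matched by group and number.

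Multiplying RPKM by exon lengths from GENCODE M21 gave whole reads (within 0.01 read or a relative 1e-06) for 97.8% of values above 0, from which depths were taken. Acta2 gave whole reads only with 1781 exon bases, against 2196 in that annotation. The 10 genes had between 272 (Lmod1) and 24545 (Acta2) reads per library.

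Values were tested as log2(RPKM + 0.5) with limma 3.58.1 (R 4.3.3, mean-variance trend) in one fit of 9 libraries, for genes with at least 0.5 RPKM in at least 3 libraries, with Benjamini-Hochberg adjustment over all of them. The genes and lists were chosen with earlier results of these data known. All 10 genes are named, with the 3 genes of smallest p per list and comparison, and others where few are counted. Some genes that this rule selects are left unreported. Alternatives were other pseudocounts, filters, scalings, a voom fit on recovered reads, a replicate block, fits of 6 libraries, and each library left out.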

Additional observations from a re-analysis of the deposited data

How the results depend on the processing

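Over 21 alternatives, values of the 10 genes in DKO_TG against WT kept direction and side of the threshold 178 times, lost a call 19 times, gained one 4 times and turned sign 9 times. In DKO_TG against DKO 202 kept both and 8 turned sign, and in DKO against WT 177 kept both, 14 lost a call, 4 gained one and 15 turned sign. The filters, the replicate block and the fits of 6 libraries cannot change a fold change. Nor can leaving out a library of the group not compared, so in these settings no sign could turn. Contractile genes called in DKO_TG against WT numbered 0 with TPM, 2 with the protein-coding sum and 2 with quantile scaling, and 3 to 6 with libraries left out. In DKO against WT they numbered 1 with TPM, 1 with the protein-coding sum and 1 with the plain total of reads, and 1 to 6 with libraries left out. The fits of 6 libraries called 6 in DKO_TG against WT and 3 in DKO against WT. Genes of the 4 pathway lists called in DKO_TG against DKO numbered 1 with TPM (Csrp1), 1 with the plain total (Pak1), 3 with quantile scaling and 0 to 4 with libraries left out, against 0 on the deposited scaling. The log2 fold change in DKO_TG against WT turned positive with TPM for Myh11 (0.14), Tagln (0.12), Cnn1 (0.22), Mylk (0.20) and Smtn (0.29), with the protein-coding sum for Cnn1 (0.0554), Mylk (0.0224) and Smtn (0.11), and with the plain total for Smtn (0.0377). In DKO against WT it turned positive with TPM for Myh11 (0.17), Cnn1 (0.41), Mylk (0.28) and Smtn (0.42), with the protein-coding sum for Cnn1 (0.25), Mylk (0.11) and Smtn (0.25), with the plain total for Cnn1 (0.20), Mylk (0.0526) and Smtn (0.19), and with quantile scaling for Smtn (0.00051). With single libraries left out, Tagln ran from -0.16 to 0.37 and Cnn1 from -0.40 to 0.19 in DKO against WT. In DKO_TG against DKO the ranges were -0.49 to 0.18 for Actg2, -0.17 to 0.14 for Myh11, -0.44 to 0.15 for Cnn1, -0.36 to 0.0678 for Lmod1, -0.13 to 0.0869 for Mylk and -0.0264 to 0.43 for Myl9. None of these genes had been called in the comparison where it turned sign, and the cause was not tested.

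The replicate numbers did not pair the samples: correlations of same-numbered libraries ran from -0.31 to 0.14. With the replicate block, 3 genes were called in DKO_TG against WT, 3 in DKO against WT and 0 in DKO_TG against DKO. Lmod1 in DKO_TG against WT then had an adjusted p of 0.0748. Each of the 10 genes had at least 272 reads in every library.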
